A study of Mus musculus with 2 samples.

Results

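The 4 mouse Hox gene clusters were examined at the level of single CpG sites, as the genomic part formed by Hoxa on chromosome 6, Hoxb on chromosome 11, Hoxc on chromosome 15 and Hoxd on chromosome 2. Each interval ran from the lowest to the highest coordinate of the protein-coding genes of that cluster in GENCODE vM21 (GRCm38, mm10) and was extended by 10 kb on either side, which gave chr6:52145590-52270880, chr11:96184316-96378256, chr15:102911103-103046852 and chr2:74658310-74775142. The 38 member genes described here, of 21938 protein-coding genes in all, were 10 Hoxa, 10 Hoxb, 9 Hoxc and 9 Hoxd genes. The intervals held 7547 of 13676795 CpG sites in replicate 1, which is 0.0552%, and 2588 of 4918612 CpG sites in replicate 2, which is 0.0526%. The rule reads the annotation and no measured value.

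The data came from SCoTCH-seq, a method in which a hairpin holds both strands of a fragment of genomic DNA together, so that 1 read pair gives the state of both cytosines of a CpG. With C for unmodified cytosine, M for 5-methylcytosine (mC) and H for 5-hydroxymethylcytosine (hmC), and the plus strand written first, 9 CpG states were called, and they are grouped here by strand symmetry into CC, MM and HH and the asymmetric pairs MC/CM, HC/CH and HM/MH. Genomic DNA came from E14, an established line of mouse embryonic stem cells (mESCs), at 2 passages that serve as the replicates. The cells were grown on gelatin in serum with leukemia inhibitory factor. The share of fetal bovine serum differs between the sample labels and the description of the study, and which one applies is not known. There was 1 condition, with no treatment, no differentiated cells and no cells lacking an enzyme, so comparisons were made between regions of the same libraries.

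Hox genes encode homeodomain transcription factors that set position along the head-to-tail axis of the embryo, and within a cluster they are ordered as they are used along that axis, with paralogue group 1 at one end and paralogue group 13 at the other. In embryonic stem cells the clusters are a textbook case of CpG-rich chromatin that carries the marks of Polycomb and Trithorax complexes together and is transcribed at low levels. DNA methyltransferases place mC, mostly on both strands of a CpG, and TET enzymes oxidise mC to hmC, so that HC/CH denotes a CpG with hmC on a single strand opposite an unmodified cytosine. Neither chromatin marks nor transcripts were measured here.

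To show what the calls look like on the sequence, a 300-base stretch was taken from each cluster. It is the stretch with the most CpGs that carried at least 2 calls with hmC in each replicate, shifted where needed so that no annotated untranslated region lay in it. The stretches were chosen for these calls, and their levels are therefore descriptions. A pair of stretches from the promoters with the highest CC level of the Hoxa and Hoxd clusters is shown for contrast, placed within each promoter where the most CpGs were covered in both replicates. All are the plus strand of GRCm38.p6, and the capitals mark CpGs at which a call with hmC was made in both replicates. The Hoxa stretch lies at chr6:52235383-52235682, in an intron of Hoxa10 on the 5′ side of its first coding base. The Hoxb stretch lies at chr11:96338433-96338732, in an intron of Hoxb3 and inside the antisense gene Gm11536. The Hoxc stretch lies at chr15:102949796-102950095, over the small RNA gene Gm27535 between Hoxc12 and Hoxc11. The Hoxd stretch lies at chr2:74675750-74676049 and covers coding exon 2 of 2 of Hoxd12, the exon with the homeobox, with the end of the intron before it. The contrast stretches lie at chr6:52246280-52246579, upstream of Hoxa11 inside the opposed RNA gene Hoxa11os, and at chr2:74668659-74668958, in coding exon 1 of 2 of Hoxd13.
Hoxa10 intron: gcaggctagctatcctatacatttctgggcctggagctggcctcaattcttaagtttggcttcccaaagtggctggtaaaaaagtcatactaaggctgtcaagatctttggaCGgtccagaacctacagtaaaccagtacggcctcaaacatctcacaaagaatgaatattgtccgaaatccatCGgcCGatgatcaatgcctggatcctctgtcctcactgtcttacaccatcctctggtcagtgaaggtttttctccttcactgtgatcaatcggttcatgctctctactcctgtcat
Hoxb3 intron: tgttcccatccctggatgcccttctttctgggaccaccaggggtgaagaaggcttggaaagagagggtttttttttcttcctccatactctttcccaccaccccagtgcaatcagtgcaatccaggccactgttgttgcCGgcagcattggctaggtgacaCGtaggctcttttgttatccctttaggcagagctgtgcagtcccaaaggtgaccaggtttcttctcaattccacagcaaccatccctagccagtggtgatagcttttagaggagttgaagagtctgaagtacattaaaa
Hoxc12 to Hoxc11: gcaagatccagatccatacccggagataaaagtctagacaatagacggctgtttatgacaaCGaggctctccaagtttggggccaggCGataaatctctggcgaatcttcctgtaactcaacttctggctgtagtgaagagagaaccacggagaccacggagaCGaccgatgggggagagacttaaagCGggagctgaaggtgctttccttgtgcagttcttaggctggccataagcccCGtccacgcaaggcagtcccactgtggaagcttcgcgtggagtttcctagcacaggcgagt
Hoxd12 exon 2: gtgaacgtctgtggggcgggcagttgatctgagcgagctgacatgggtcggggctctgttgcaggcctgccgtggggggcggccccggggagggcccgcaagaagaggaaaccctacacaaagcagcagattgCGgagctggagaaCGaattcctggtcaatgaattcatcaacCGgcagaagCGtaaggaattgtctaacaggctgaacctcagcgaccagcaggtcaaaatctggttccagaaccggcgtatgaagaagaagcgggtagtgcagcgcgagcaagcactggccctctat
Hoxa11 promoter: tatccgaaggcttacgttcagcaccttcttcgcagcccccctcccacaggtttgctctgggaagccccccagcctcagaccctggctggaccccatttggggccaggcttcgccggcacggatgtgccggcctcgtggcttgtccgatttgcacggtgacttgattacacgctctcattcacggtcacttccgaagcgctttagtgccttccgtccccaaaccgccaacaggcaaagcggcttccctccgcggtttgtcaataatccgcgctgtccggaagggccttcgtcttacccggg
Hoxd13 exon 1: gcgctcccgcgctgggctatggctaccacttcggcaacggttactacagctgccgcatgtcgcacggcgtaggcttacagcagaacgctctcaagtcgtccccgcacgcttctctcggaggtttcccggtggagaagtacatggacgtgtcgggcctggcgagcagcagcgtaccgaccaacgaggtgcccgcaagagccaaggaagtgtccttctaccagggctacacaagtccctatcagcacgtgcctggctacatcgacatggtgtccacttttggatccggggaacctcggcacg

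The 6 CpGs of the Hoxa10 intron carried hmC in 17 of 114 calls of replicate 1 (14.9%) and 11 of 53 calls of replicate 2 (20.8%), and 3 of them did so with at least 2 calls in each replicate. The 2 CpGs of the Hoxb3 intron carried hmC in 7 of 27 calls (25.9%) and 7 of 13 calls (53.8%). The stretch between Hoxc12 and Hoxc11 holds 15 CpGs, of which 5 were recurrent in that sense, with hmC in 36 of 197 calls (18.3%) and 11 of 45 calls (24.4%). In the last exon of Hoxd12, where the CC level was 63.4% and 50.8%, hmC was called in 15 of 93 calls (16.1%) and 14 of 59 calls (23.7%). The contrast stretches are at least as rich in CpGs and held no hmC call. The Hoxa11 promoter gave 0 of 230 and 0 of 58 calls, for which the upper bounds of the 95% Clopper-Pearson intervals are 1.59% and 6.16%, and the Hoxd13 exon gave 0 of 328 and 0 of 76 calls, with upper bounds of 1.12% and 4.74%. They come from promoters picked for a high CC level, so the lack of hmC calls follows in part from that choice.

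Within the Hox intervals, replicate 1 held 71739 calls and replicate 2 held 16353 calls, at a median depth of 8 and 6 calls per CpG site, against 10 and 6 over the genome. Of the 13076 CpGs of the reference in the intervals, 57.7% were covered in replicate 1 and 19.8% in replicate 2, and 2302 sites were covered in both. At these depths a single site is a coarse measure. Across the 2302 shared sites the replicates correlated with Pearson's r = 0.823 for CC and r = 0.178 for HC/CH, and across 109 windows of 5 kb with r = 0.934 and r = 0.526. Levels are therefore given for genes, exons, windows and clusters, as the calls of a state divided by all calls, and the replicates are kept apart. As the 2 replicates are of the same condition, samples were not tested against each other. Regions were compared by Fisher's exact test, two-sided, within each replicate, with Benjamini-Hochberg adjustment, and a difference is said to be called where the adjusted p was under 0.05 in both replicates in the same direction. Calls at neighbouring CpGs can come from 1 molecule, so the p-values and intervals cover counting error only. Miscalls of the spike-in duplexes were not evenly spread. In replicates 1 and 2, 3.49% and 0.618% of MC calls were read as HC/CH, and 4.51% and 0.467% of MM calls as HM/MH. MM was read as HH in 0.709% and 0.0117%. Of CC calls, 0.154% and 0.219% were read as HC/CH and 0.647% and 1.37% as MC/CM. The labelled cell type was checked at promoters, since no transcripts were measured: those of Pou5f1 (98.7% and 100% CC) and Sox2 (99.8% and 100%) were almost free of modification, and Nanog stood at 80.1% and 86.2%. Of 11 pluripotency genes listed, the range was 80.1% to 100% in 10, and Esrrb stood at 28.0% and 15% with few sites in replicate 2. Of 6 germline and trophoblast genes usually methylated in such cells, Tex101 stood at 17.2% and 4.55% Sycp3 at 67.8% and 68.8%, Elf5 at 12.0% and 15.8% and Ddx4 at 19.0% and 32.0%. Mael stood at 40.6% and Dazl at 62.4% in replicate 1, with 3 and 0 sites in replicate 2. Sycp3 and Dazl were thus mostly unmodified.

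To ask whether the Hox clusters differ from their surroundings, each was compared with the 200 kb on either side of it. All 4 clusters were far more unmodified than their flanks. The Hoxa cluster was 74.2% and 69.2% CC in the replicates, against 27.0% and 26.3% in its flanks. Hoxb was at 63.5% and 59.2% against 29.0% and 26.2%, Hoxc at 70.7% and 66.1% against 33.1% and 28.6%, and Hoxd at 69.4% and 59.4% against 17.8% and 14.6%. Cluster and flank values did not overlap. Pooled over the clusters, the CC level was 66.2% ± 4.12 (SD, n = 2) against 25.6% ± 1.78, and it was called higher in 4 of 4 clusters. MM, the symmetrically methylated state, was at 19.8% ± 2.47 against 52.3% ± 2.16 and called lower in 4 of 4. MC/CM, which is methylated on a single strand, was at 6.66% ± 1.38 against 13.8% ± 1.26 and likewise called lower in 4 of 4.

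HC/CH did not share in this contrast. Its level was 4.84% ± 0.270 in the clusters and 4.53% ± 0.429 in the flanks, and it was called in 0 of 4 clusters in either direction. Hoxa stood at 4.62% and 5.57% against 4.99% and 4.31%, and Hoxd at 3.93% and 4.82% against 3.89% and 2.65%, where in both clusters replicate 2 alone passed the exact test (adjusted p = 0.00304 for Hoxa and 4.39e-08 for Hoxd). After correction with the spike-in call rates the pooled levels were 4.41% and 5.06% against 4.34% and 4.20%, and replicate 1, at 4.65% against 4.83% before correction, changed direction, a difference that was not tested. Hoxb stood at 5.06% and 4.82% against 5.37% and 4.93%, and Hoxc at 4.80% and 4.86% against 4.90% and 4.62%. The count of clusters called changed with the processing. When sites were thinned to at least 200 bp apart, HC/CH was called higher in 3 clusters, with 6.10% and 6.28% against 4.85% and 4.26% for Hoxa, 6.0% and 5.69% against 4.78% and 4.08% for Hoxc, and 4.68% and 5.25% against 3.70% and 2.63% for Hoxd. HM/MH, with hmC opposite mC, was at 2.14% and 2.23% in the clusters against 4.14% and 2.73% in the flanks, and it was called lower in Hoxa, with 2.01% and 1.95% against 4.29% and 3.04%. After correction with the spike-in call rates the values were 1.27% and 1.99% in the clusters against 1.70% and 2.39% in the flanks, and in Hoxa 1.3% and 1.71% against 1.87% and 2.72%, so that the difference in replicate 1 was much smaller. The corrected values were not tested. HH, with hmC on both strands, was rare, at 0.333% and 0.238% of calls in the clusters against 0.478% and 0.180% in the flanks. Corrected in the same way it was 0.156% and 0.222% against 0.0367% and 0.161%, which turns the direction in replicate 1.

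**Figure D1:**
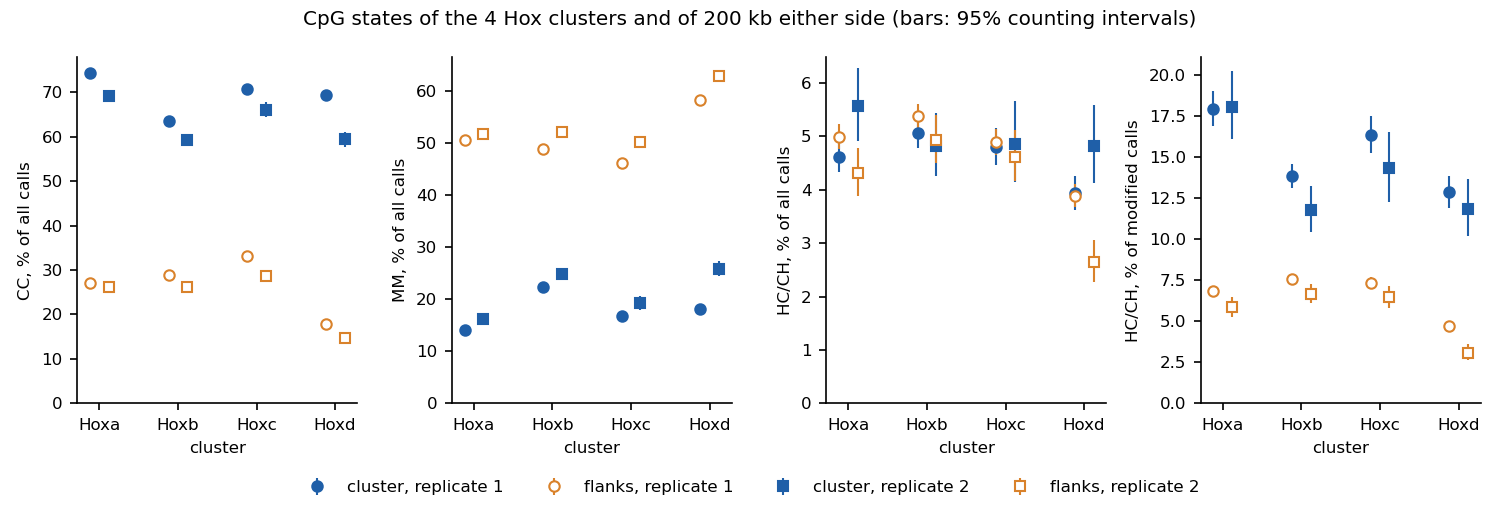
Levels of CC, MM and HC/CH as percent of all calls, and of HC/CH as percent of the modified calls, in each Hox cluster (filled) and in the 200 kb on either side of it (open), with circles for replicate 1, squares for replicate 2 and bars for 95% Clopper-Pearson intervals. CC is high and MM low in every cluster relative to its flanks, the HC/CH levels of clusters and flanks lie close together in replicate 1 and apart in replicate 2 in Hoxa (5.57% against 4.31%) and Hoxd (4.82% against 2.65%), and HC/CH takes 11.8% to 18.1% of the modified calls in the clusters against 3.1% to 7.57% in the flanks.

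The composition of the modified calls (all calls other than CC) was compared as well, since CC made up most calls in the clusters. Among them, HC/CH made up 17.9% and 18.1% in Hoxa against 6.83% and 5.85% in its flanks. The values were 13.9% and 11.8% against 7.57% and 6.68% for Hoxb, 16.4% and 14.3% against 7.32% and 6.48% for Hoxc, and 12.9% and 11.9% against 4.73% and 3.1% for Hoxd. Over the clusters the share was 14.4% ± 0.955 (SD, n = 2) against 6.09% ± 0.723, and it was called higher in 4 of 4, with Hoxb in replicate 2 having the largest adjusted p of Fisher's exact test (5.28e-13). The share of HM/MH was 6.92% and 6.07% against 5.66% and 3.61%, called higher in 4 of 4, but in 0 of 4 at a coverage minimum of 10 calls or with sites at least 200 bp apart. The share of HH was called higher in 2 of 4, Hoxc and Hoxd, without the correction that moved its level. With that correction the pooled share was 0.514% and 0.620% against 0.0502% and 0.213%, which was not tested. The share of MM was 58.5% and 58.8% against 69.5% and 71.2%, called lower in 4 of 4. The share of MC/CM, 18.4% and 20.8% against 17.6% and 19.4%, was called in 0 of 4, although it passed the exact test in replicate 2 alone for Hoxa and Hoxb (adjusted p = 0.0159 and 0.0201). Within the modified calls of the clusters, states with hmC thus had a larger part and MM a smaller part than in the flanks. The HC/CH share also rose with the CC level in 10 kb windows outside the Hox intervals. Its medians there were 4.67% and 3.57% at 0% to 20% CC and 16.1% and 14.9% at 80% to 100%.

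The clusters were not uniform along their length. In the Hoxb cluster, CC stayed between 12.4% and 34.6% in both replicates in the windows from 25 to 65 kb after the start of the interval, within the stretch between Hoxb13 and Hoxb9 that holds no member. It was 60.3% to 75.2% in the windows from 65 to 80 kb and 85.7% and 85.0% in the window from 85 kb, which holds the first coding base of Hoxb9. The rise was not steady. Within 1 kb of the start of Mir196a-1, which lies before the window from 85 kb, CC was 23.4% and 28.6%, over 19 and 5 sites. The highest window of Hoxb in replicate 1, from 165 kb, holds the first coding base of Hoxb2 and had 94.0% and 89.2% CC. At the Hoxd1 end of the Hoxd interval CC was low. The windows from 95 to 115 kb had 25.7% and 12.0%, 49.6% and 25.3%, 27.9% and 5.80%, and 13.7% and 7.44% CC. Hoxd1 is 2163 bp long with its first coding base at 104.8 kb, and the 10 kb extension follows it. These windows thus lie mostly outside the gene. In the posterior part of Hoxd, the window from 15 kb, which holds Hoxd12, had 58.2% and 59.6% CC and 8.82% and 10.4% HC/CH. Its neighbours with Hoxd13 (from 10 kb) and Hoxd11 (from 20 kb) had 89.0% and 89.6% CC and 96.3% and 90.4% CC, with HC/CH at 1.56% and 1.4% and at 0.959% and 4.79%. Beyond the last member of Hoxb, in the window from 185 kb, HC/CH was high in replicate 1 alone, at 14.5% against 5.71% in replicate 2. Between Hoxc12 and Hoxc11 it was high in both replicates, at 9.85% and 10.1% in the window from 35 kb. The CC level of these windows was 31.2% and 34.3%, and 41.8% and 30.4%.

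**Figure D2:**
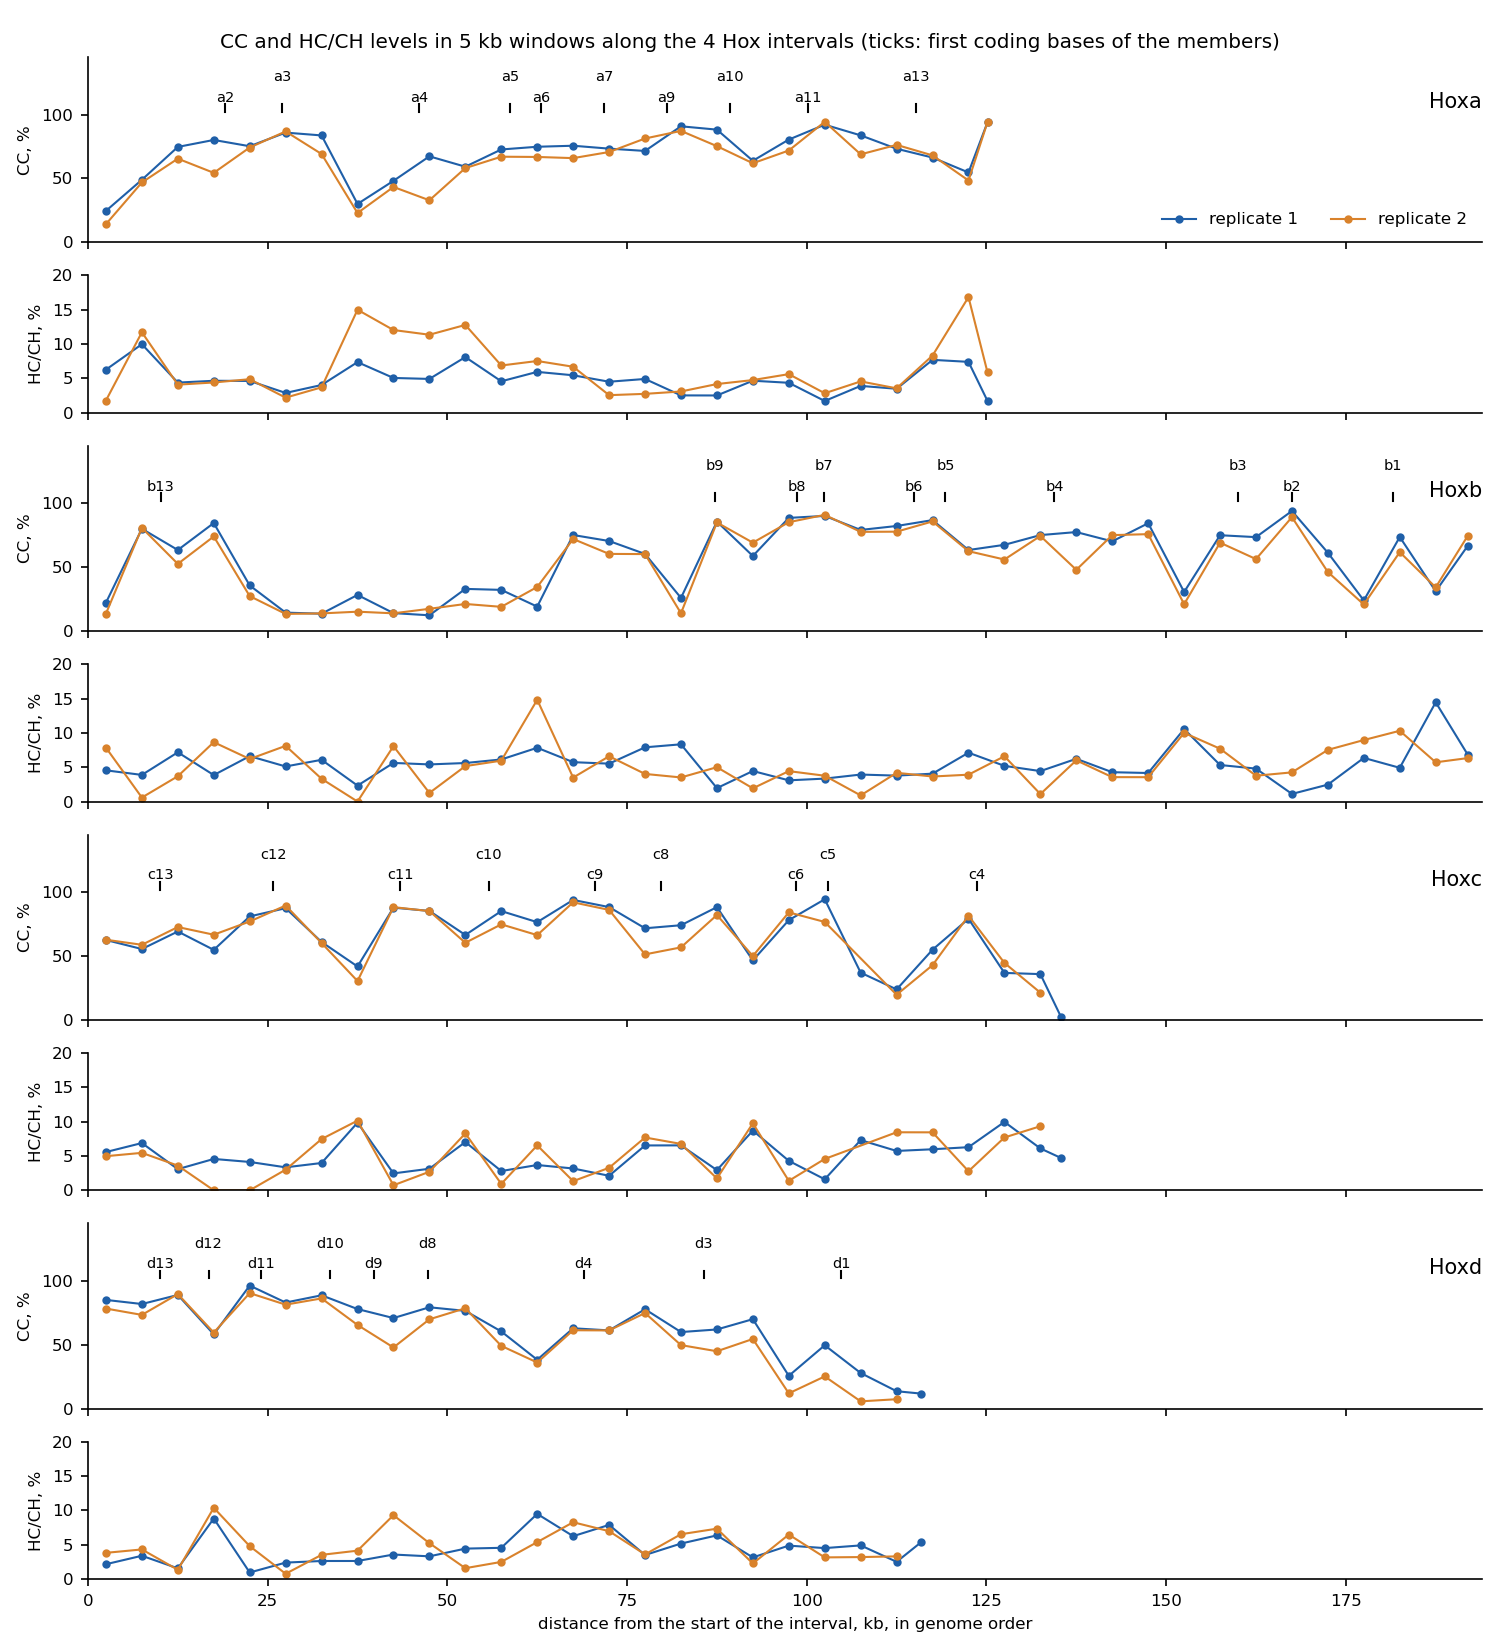
CC and HC/CH as percent of calls in 5 kb windows along the 4 Hox intervals, plotted against the distance in kb from the start of each interval in genome order, with the first coding base of each member marked and 1 line for each replicate. CC is low in the part of Hoxb without member genes and at the Hoxd1 end of Hoxd, and the Hoxd12 window of Hoxd (58.2% and 59.6% CC) lies between windows at 89.0% to 96.3%.

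Over gene bodies, taken from annotated start to end, every member that could be tested was more unmodified than the average gene. A test needed at least 10 CpG sites in each replicate, which 34 of the 38 members and 17889 genes in all had. Hoxa4, Hoxb4, Hoxd1 and Hoxd9 did not. CC was called higher in 34 of the 34 members, against 42.6% of all genes tested, MM lower in 34, against 40.3%, and MC/CM lower in 28, against 23.7%. With sites at least 200 bp apart, MC/CM was called lower in 7 of 15 tested members, 46.7% against 7.25% of genes. The median CC level of the tested members was 81.2% and 75.1%, against 27.0% and 22.6% over all genes tested, and that of MM was 10.4% and 13.2% against 51.2% and 56.2%. The range ran from Hoxc4 (56.8% and 49.7% CC) to Hoxc11 (98.9% and 99.2% CC). The bodies are not independent, since the annotated Hoxc5 spans 4 other members, Hoxa3 spans 3, and Hoxd3 overlaps Hoxd4. From the first to the last coding base alone, 24 members had enough sites and CC was called higher and MM lower in all 24, against 39.1% and 36.7% of 16117 genes.

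HC/CH over gene bodies did not follow CC. It was called higher in 2 of the 34 tested members, against 12.0% of all genes tested, and lower in 0 of 34, against 8.87%, and its median was 3.45% and 3.56% against 4.54% and 3.94% over all genes tested. Replicate 1 alone called HC/CH higher in 5 of 38 members, against 25.9% of genes, and lower in 12, 31.6% against 23.0%. Replicate 2 alone called it higher in 4 of 34, against 14.4%, and lower in 0, against 10.5%. HM/MH was called in 0 members in either direction, where 2.31% of all genes tested were called higher and 1.97% lower. Its median was nevertheless below that of all genes, 1.44% and 1.70% against 3.91% and 2.47%, and replicate 1 alone called it lower in 28 of 38 members against 16.4% of genes, while replicate 2 alone called it in 0. The spike-in duplexes gave 4.51% of MM read as HM/MH in replicate 1 and 0.467% in replicate 2, and corrected for these rates the medians were 0.94% and 1.7% against 1.5% and 2.1%, with 8 and 10 of the 34 members above the median of all genes. HH was likewise called in 0 members, against 0.0224% of genes called higher and 0.0447% lower. Ranked by the lower of the replicates, Hoxd12, a posterior gene, had the highest HC/CH level, 7.30% and 11.6% (adjusted p of the exact test 0.0298 and 0.000621), beside 69.7% and 65.2% CC. Hoxd3, an anterior gene, had 5.63% and 5.64% (adjusted p of the exact test 0.00147 and 0.0458). The others among the 5 highest were Hoxc4 with 6.21% and 6.51%, Hoxa3 with 5.03% and 7.66%, and Hoxd4 with 5.84% and 4.94%, and these were not called. Between the first and last coding bases, where introns and exons upstream of the coding part drop out, HC/CH was called higher in 0 of the 24 members tested, against 11.7% of genes.

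By the same ranking, the members highest in HM/MH were Hoxb13 (3.77% and 4.55%), Hoxd4 (3.1% and 2.92%), Hoxd3 (2.82% and 3.21%), Hoxa3 (2.61% and 2.78%) and Hoxc4 (2.09% and 3.85%). The members highest in MC/CM were Hoxc4 (8.47% and 10.1%), Hoxd3 (6.98% and 8.07%), Hoxd4 (6.73% and 8.76%), Hoxb13 (6.23% and 11%) and Hoxa7 (5.91% and 6.37%). The 4 names in both lists, Hoxc4, Hoxd3, Hoxd4 and Hoxb13, are the tested members with the lowest CC levels.

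The ends of the clusters were looked at separately. Group 13, the most posterior, ranged in CC over the body from Hoxd13 (91.9% and 87.6%) through Hoxa13 (83.6% and 81.0%) and Hoxc13 (72.7% and 74.2%) to Hoxb13 (62.1% and 53.2%). At the anterior end, Hoxb1 had 81.0% and 69.5% CC with 4.76% and 10.2% HC/CH. Hoxd1 could not be tested, with 28 and 7 sites, and its CC level was 49.1% and 15.8% with 35.1% and 73.7% MM. These values rest on different parts of the gene, since its first coding exon had 100% CC over 11 sites in replicate 1 and 0 sites in replicate 2.

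At promoters, taken as 1 kb on either side of the annotated gene start, the median CC level of the Hox genes was close to that of all promoters. There, 21 of 38 members and 9675 promoters in all had at least 10 sites in each replicate. CC was called higher in 6 members, Hoxa11, Hoxb7, Hoxc9, Hoxc11, Hoxc13 and Hoxd13, which is 28.6% of the tested members against 40.4% of all promoters, and lower in 3, Hoxa3, Hoxa6 and Hoxd12, which is 14.3% against 20.9%. MM was called lower in 6, against 37.6%. The share called depended on the window, since within 2 kb of the start CC was called higher in 62.9% of 35 members against 34.3% of all promoters. It also depended on the replicates used. With replicate 1 alone, CC was called higher in 76.3% of 38 members against 51.1%, and MM lower in 84.2% against 52.0%. The median CC level was 90.2% and 92.1%, against 91.3% and 90.3% over all promoters tested. HC/CH was called higher in 3 members, 14.3% of those tested against 4.71% of all promoters. In replicate 1 alone, where all 38 members could be tested, the shares were 21.1% and 20.6%. The HC/CH median of the 21 was 2.51% and 3.30% against 1.37% and 1.33%. MC/CM was called higher in Hoxa3, against 8.35% of promoters, and HM/MH in 0 members in either direction, against 2.7% of promoters called higher and 0.0103% lower.

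The 3 promoters with raised HC/CH were those with lowered CC. Hoxd12 had 62.7% and 66.4% CC and 8.82% and 11% HC/CH over 42 and 21 sites (adjusted p of the exact test for HC/CH 1.40e-12 and 1.22e-05). Hoxa6, a central gene, had 79.4% and 52.9% CC and 7.51% and 14.3% HC/CH over 28 and 13 sites (exact test, adjusted p = 4.19e-06 and 0.000157). Hoxa3, an anterior gene, had 71.4% and 64.2% CC and 6.32% and 9.43% HC/CH over 50 and 19 sites (exact test, adjusted p = 1.45e-07 and 0.00244). In each cluster the tested promoter with the highest CC level was Hoxa11 (97.2% and 96.9%), Hoxb7 (93.1% and 98.8%), Hoxc9 (93.6% and 97.5%) and Hoxd13 (97.9% and 95.2%), and the lowest were Hoxa6, Hoxb8 (81.5% and 79.7%), Hoxc12 (90.5% and 93.9%) and Hoxd12. The other tested promoters at the cluster ends were those of Hoxa13 (91.9% and 93.1%), Hoxb13 (86.4% and 91.5%), Hoxc13 (96.8% and 93.6%) and Hoxb1 (89.1% and 83.5%), and that of Hoxd1, with 3 sites in replicate 2 and no test, stood at 76.5% and 68.8%.

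**Figure D3:**
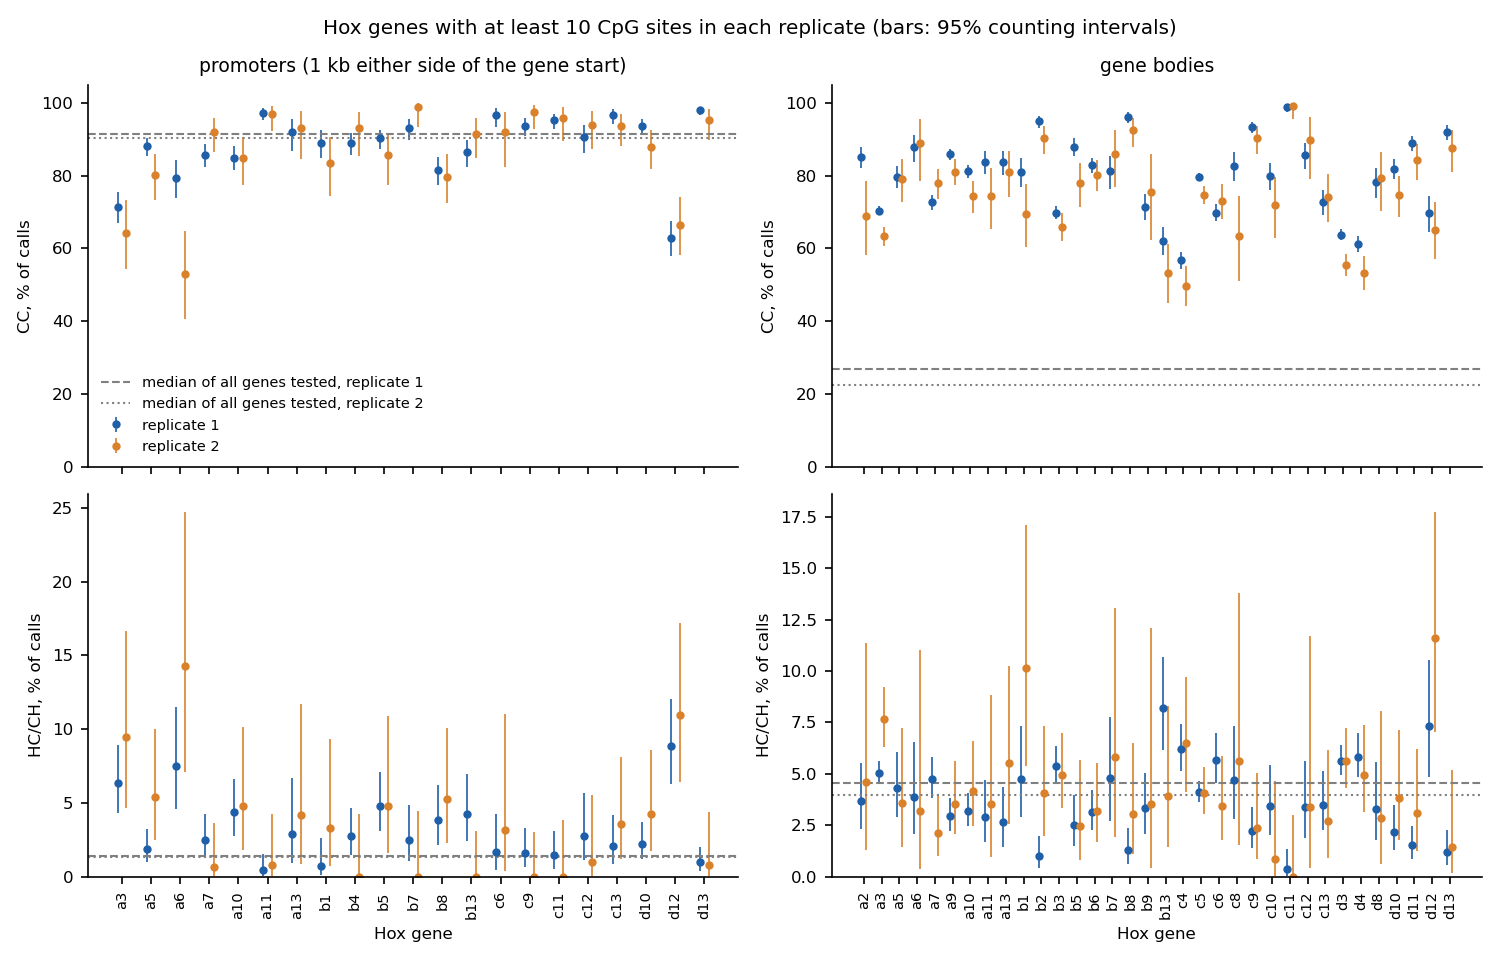
CC (top) and HC/CH (bottom) as percent of calls at the promoters (left) and over the bodies (right) of the Hox genes that could be tested, in cluster order with the prefix Hox left out, with bars for 95% Clopper-Pearson intervals and grey lines for the median of all genes tested. All 34 bodies lie far above the median CC level of all genes (27.0% and 22.6%), while the promoters lie on both sides of theirs, with a3, a6 and d12 called below the average promoter.

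The annotated start is a weak guide to the promoter in these clusters, since in 15 members it lies more than 1 kb from the first coding base, by 40687 bp in Hoxa3 and 46639 bp in Hoxc5, and Hoxd3 and Hoxd4 share a start window. The comparison was therefore repeated with 1 kb on either side of the first coding base, an alternative chosen after seeing the data. With 28 of the 38 members and 8731 genes tested, CC was called higher in 16 members, 57.1% against 47.5% of all genes, and lower in 2, Hoxa10 and Hoxd12, 7.14% against 26.8%. MM was called lower in 20, 71.4% against 46.9%, and higher in 1, Hoxa10, against 23.9%. HC/CH was called higher in 2, Hoxa6 (6.53% and 13.3%) and Hoxd12 (9.07% and 11.2%), 7.14% against 5.81%. Hoxa3 there had 92.7% and 95% CC and 2.74% and 1.89% HC/CH. Hoxa10 had 73.3% and 50.8% CC. HM/MH was called higher in it alone, 3.57% of the members tested against 3.67% of all genes. Its HM/MH level was 3.04% and 5.93%, against 1.26% and 1.19% pooled over all genes tested. The windows of Hoxd12 and Hoxa6 are nearly the same under both definitions, since their starts lie 74 and 98 bp from the first coding base, so for HC/CH the second window is a separate look for Hoxa3 alone of these 3.

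The windows around the first coding base were also grouped by position in the cluster. Anterior members (groups 1 to 3) had 85.6% and 84.0% CC, central members (groups 4 to 8) had 92.3% and 87.3%, and posterior members (groups 9 to 13) had 91.5% and 86.6%. HC/CH was at 2.51% and 4.18%, 2.13% and 3.08%, and 2.15% and 3.21% in the same order. For CC the counting interval of the anterior group lay below those of the other groups in replicate 1 and overlapped them in replicate 2, and for HC/CH the intervals overlapped in both. Among paralogue groups, group 12 stood lowest in CC in both replicates, at 73.1% and 74.3% with 6.54% and 7.55% HC/CH, and group 11 highest, at 97.8% and 94.8% with 0.331% and 1.44% HC/CH. Group 12 here holds just 2 genes, Hoxc12 and Hoxd12, and the Hoxc12 window had 89.1% and 92.3% CC, so the low value came from Hoxd12.

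Most Hox genes have a pair of coding exons, and the homeobox, which encodes the DNA-binding homeodomain, lies in the last one. Pooled over the members, last coding exons carried more of nearly every modified state than first coding exons. First exons as a set were richer in CpGs, and the exons were not matched for CpG density. The same comparison was not made for other genes, so the contrast is not shown to be particular to the homeobox exon. CC was 87.9% and 81.7% in last against 96.1% and 92.8% in first exons, from 489 and 156 sites against 720 and 216 sites. HC/CH was 3.68% and 4.97% against 1.04% and 1.63% (Fisher's exact test, adjusted p = 1.26e-18 and 7.52e-06). MM was 5.00% and 7.51% against 1.53% and 3.12%, and MC/CM 1.91% and 3.85% against 0.884% and 1.71%, both past the threshold in both replicates. The MC/CM levels of first exons were not far above the rates of CC read as MC/CM, 0.647% and 1.37%. HM/MH, at 1.25% and 1.62% against 0.277% and 0.594%, passed with a larger adjusted p in replicate 2 (exact test, 0.0249), and HH did not pass (adjusted p of the exact test 0.371 and 0.656). Some of these calls were lost at sites at least 200 bp apart, where the HC/CH difference was 3.95 percentage points. Its p was 0.0678 in Fisher's exact test, the larger of the replicates' unadjusted values. Why the calls were lost was not tested.

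The direction was shared by most members. Of the 37 members with at least 3 sites in both exons in replicate 1, HC/CH was higher in the last exon in 29, lower in 6 and equal in 2, with a median difference of 3.26 percentage points. Of the 16 such members in replicate 2 it was higher in 12, lower in 2 and equal in 2, with a median difference of 3.35 percentage points. CC was lower in the last exon in 30 of 37 and 13 of 16. Hoxd12, whose last exon is printed above, had 12.9% and 16.9% HC/CH there and 3.1% and 4.17% in its first exon. Hoxa9 had 67.5% and 68.6% CC with 8.43% and 7.14% HC/CH in the last exon, and 99.3% and 100% CC in the first. In Hoxa10, by contrast, CC was 97.8% in the first and 98.1% in the last exon in replicate 1.

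**Figure D4:**
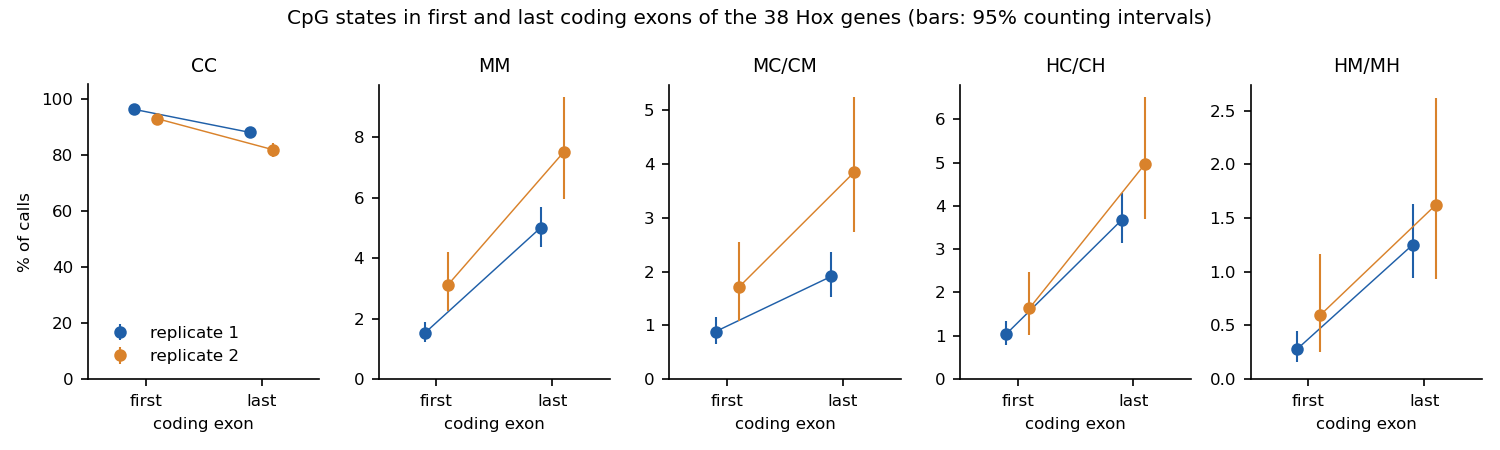
Levels of CC, MM, MC/CM, HC/CH and HM/MH as percent of calls in first and last coding exons pooled over the 38 Hox genes, 1 colour for each replicate and with bars for 95% Clopper-Pearson intervals. CC falls and the modified states rise from first to last exons in both replicates, HC/CH from 1.04% and 1.63% to 3.68% and 4.97%.

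By annotation, coding exons of members were the most unmodified part of the intervals, with 92.7% and 88.3% CC and 2.15% and 3.02% HC/CH. Sites within 1 kb of a gene start outside them had 77.6% and 73.2% CC and 4.16% and 4.89% HC/CH. Introns of any annotated gene had 64.7% and 59.0% CC with 5.57% and 5.53% HC/CH, other exons 66.7% and 57.4% with 5.35% and 6.46%, and sequence outside genes 51.9% and 45.2% with 5.36% and 5.24%. Read as a share of the modified calls, coding exons went from the lowest place to the highest, with HC/CH at 29.4% and 25.9%, while introns, at 15.8% and 13.5%, again lay above sequence outside genes, at 11.1% and 9.55%. The shares are not corrected for CC read as MC/CM or for other miscalls.

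CpG density varies strongly in the clusters, from 19.9 CpGs per kb in Hoxb to 27.4 in Hoxa. Sites were therefore also divided by the number of CpGs within 100 bp, counting the site itself. At 1 to 4 CpGs, Hox sites had 46.3% and 38.5% CC against 18.5% and 15.6% in the rest of the genome. HC/CH was there at 6.15% and 6.21% against 3.81% and 3.37%. At 5 to 9 the CC level was 72.4% and 67.1% against 28.3% and 26.0%, but HC/CH was at 5.12% and 5.84% against 5.38% and 5.04%. At 10 to 14 HC/CH was below the rest, 3.06% and 3.02% against 3.76% and 3.74%, and at 15 or more it was above, 1.24% and 1.90% against 0.626% and 0.781%. As a share of the modified calls, HC/CH was higher in the Hox intervals at every density and in both replicates, from 11.4% and 10.1% against 4.68% and 3.99% at the lowest density to 39.8% and 33.3% against 18.6% and 21.9% at the highest. At the highest density the Hox values rest on 101 and 31 HC/CH calls, and no share was corrected for miscalls. These are descriptions with no test.

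**Figure D5:**
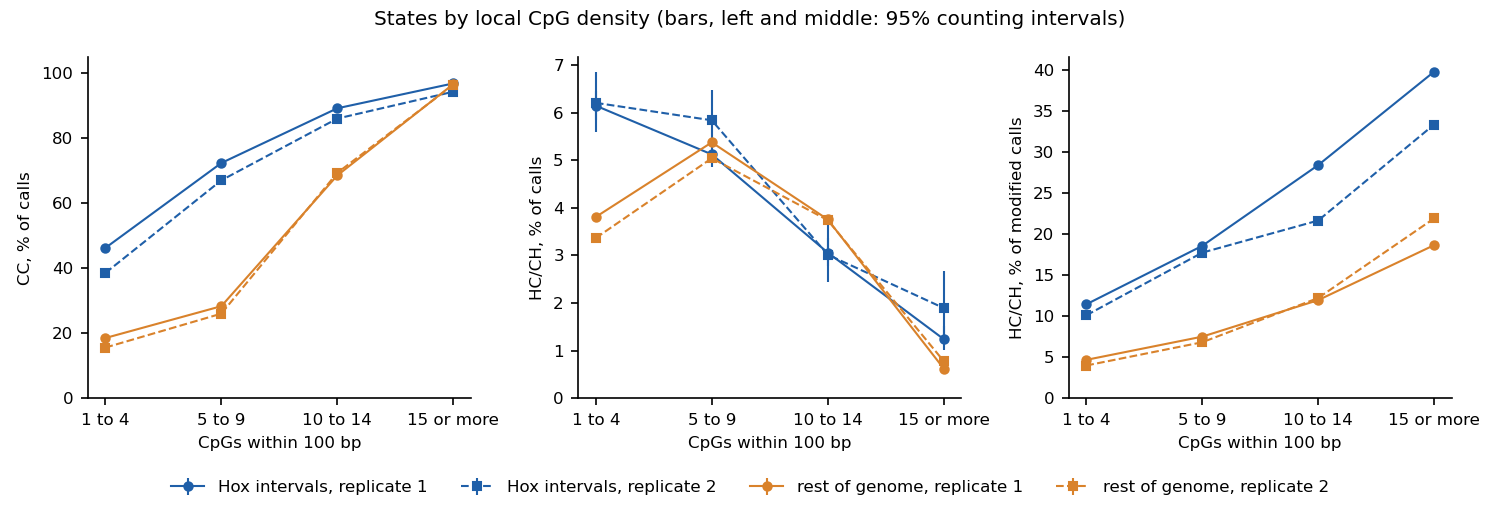
CC and HC/CH as percent of all calls, and HC/CH as percent of the modified calls, by the number of CpGs within 100 bp of a site (itself included), for the Hox intervals and the rest of the genome, with solid lines for replicate 1 and dashed lines for replicate 2. The CC lines meet at the highest density, the HC/CH lines cross, and the share of HC/CH among modified calls is higher in the Hox intervals in each of the 4 classes.

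The Hox intervals were also set beside other 10 kb windows of the genome with a similar CC level, each with at least 20 sites in each replicate. At 60% to 80% CC, the 25 Hox windows had a median HC/CH level of 4.67% and 4.44%, against 3.70% and 3.54% in 3861 other windows, and a median share of the modified calls of 19.1% and 15% against 12.2% and 11.1%. At 40% to 60% CC, the 14 Hox windows had 6.33% and 7.15% against 4.92% and 4.74% in 9898 others, with shares of 14.6% and 14.9% against 10.0% and 9.02%. At 80% to 100% CC, the 11 Hox windows had 2.94% and 3.09% against 2.29% and 2.23% in 533 others. The shares there lay closer, at 19.4% and 17.1% against 16.1% and 14.9%. At 0% to 20% and 20% to 40% CC, with 4 and 6 Hox windows, their medians were also above those of the others, at 4.90% and 4.65% against 4.07% and 3.23%, and at 5.74% and 5.33% against 5.44% and 4.90%. Neighbouring windows share a cluster, and no test was made.

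Of the 2302 sites covered in both replicates, 466 had a call with hmC in both, for which no genome share was computed. At least 2 such calls in each replicate were made at 103, which is 4.47% against 3.85% of 4520194 shared sites in the genome. The 103 recurrent sites were 29 of 623 shared sites in Hoxa, 29 of 738 in Hoxb, 20 of 459 in Hoxc and 25 of 482 in Hoxd. By annotation, 34 were in introns, 23 outside genes, 23 within 1 kb of a gene start, 13 in other exons and 10 in coding exons of members. The counts by annotation stand without the shared sites of each class and are not rates. Ranked by the replicate with fewer hmC calls, the highest site in Hoxa, chr6:52235567, lies 633 bp before the first coding base of Hoxa10 in the stretch printed above, with 6 of 17 and 5 of 10 calls, and chr6:52151834, outside genes, had 7 of 21 and 3 of 6. Between Hoxc12 and Hoxc11, chr15:102948268 carried hmC in 6 of 10 and 4 of 9 calls. Of the 4 recurrent sites in the last exon of Hoxd12, chr2:74675933 had the most, with 6 of 15 and 3 of 9 calls. Single sites rest on few calls, and they are listed as places and not as levels.

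The orientation of the asymmetric states was close to even. In 4 clusters and 3 pairs (HC with CH, HM with MH, MC with CM), 0 of 12 differed from an equal split in both replicates by the exact binomial test with adjustment over all of them, and the lowest unadjusted p was 0.00791 for Hoxc in replicate 2, with 26 HM and 50 MH calls (exact test, adjusted p = 0.190). Of the 24 unadjusted values, 5 were under 0.05. Within the coding spans of members, the hmC of HC/CH lay on the sense strand in 49.3% of 363 calls and 47.8% of 115 calls.

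The clusters also hold 48 genes not annotated as protein-coding, which were read within 1 kb of their annotated starts. Among them is the processed pseudogene Gm11539, which had the lowest CC level of replicate 1 given here. The 28 with at least 10 sites in each replicate ranged from 17.3% to 99.1% CC in replicate 1 and from 20% to 97.6% in replicate 2, with medians of 72.5% in both. Well-known long RNAs are given by name, chosen after their values were seen. Hottip, transcribed away from Hoxa13, had 72.7% and 69.5% CC with 7.58% and 9.47% HC/CH. Hotair, in the Hoxc cluster, had 54.4% and 35.7% CC with 11.2% and 8.93% HC/CH, over 16 and 9 sites. Hotairm1, at the anterior end of Hoxa, had 68.4% and 57.9% CC with 7.37% and 2.63% HC/CH. Others were almost unmodified, such as Gm15050 in Hoxa (94.5% and 96.1% CC) and Gm53 in Hoxb (92.7% and 91.1%). Many of these windows overlap each other or a member, and they were not tested.

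The microRNAs of the clusters are shown because their families cross the clusters as the Hox genes do: miR-10 in Hoxb and Hoxd, and miR-196 in Hoxa, Hoxb and Hoxc, where 2 loci give the same mature RNA. The mature sequences are from RefSeq (GRCm38.p6), and the capitals mark the seed, bases 2 to 8, which is shared within each family and pairs with target transcripts. All 6 loci were matched.
miR-10a-5p: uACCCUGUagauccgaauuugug
miR-10b-5p: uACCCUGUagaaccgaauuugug
miR-196a-5p: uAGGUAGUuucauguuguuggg
miR-196b-5p: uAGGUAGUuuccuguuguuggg
miR-615-3p: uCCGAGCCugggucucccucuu

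The loci with 1 seed did not share a CpG state. Around the start of Mir10a (chr11:96317165-96317274) CC was 71.9% and 81.4%, and around Mir10b (chr2:74726070-74726137) it was 46.3% and 53.7%. Mir196b (chr6:52230081-52230165) was at 93.5% and 95.2%, Mir196a-2 (chr15:102973350-102973434) at 75% and 60%, and Mir196a-1 (chr11:96265164-96265265), which lies in the gene-poor part of Hoxb, at 23.4% and 28.6%. Mir615 (chr15:103014910-103015001) was at 99.1% and 87.8%. Replicate 2 had 5 sites at each of the Mir196a loci and 9 at Mir10b.

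For context, partners and relatives of the Hox genes were read by the same tests. Of 9 genes for Hox cofactors of the Pbx, Meis and Pknox families, all had a testable body, and CC was called higher in 3 (Pbx2, Pbx4 and Pknox1) and lower in 2 (Pbx3 and Meis2), against 42.6% and 30.6% of all genes tested. Of the 6 ParaHox genes, which descend from the same ancestral cluster but lie elsewhere, CC over the body was called higher in 5, among them Cdx2 (86.5% and 88.6%) and Gsx1 (94.2% and 97.3%), while Cdx1 stood at 23.9% and 15.5%. At promoters, CC was called higher in 1 of 5 testable cofactors (Pknox1) and 1 of 4 testable ParaHox genes (Gsx1), against 40.4% of all promoters.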

How the data were processed

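Whole-genome SCoTCH-seq libraries of 2 replicates of E14 mESCs were used. The authors trimmed reads with cutadapt 4.6, aligned them to GRCm38 (mm10) with BSBolt, removed duplicates with Picard 3.1.1, resolved each read pair into a CpG state, removed blacklisted and error-prone sites, kept sites with at least 5 calls and did so separately for each replicate. The deposited files list, per CpG site and state, the count of calls and its percent of the calls at that site, with no correction by the spike-in duplexes. The spike-in call rates were computed for each replicate from the deposited counts at the duplex sites, leaving out positions with few calls. The majority state of a site was taken as the true one, and mirrored states were averaged.

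Counts were summed over the sites of a region and divided by all calls, or by all calls other than CC. Positions are 1-based on GRCm38.p6 with GENCODE vM21. Intervals are exact (Clopper-Pearson, 95%). A cluster was compared with 200 kb on either side, and a gene with the calls summed over all genes that had at least 10 sites in each replicate, by Fisher's exact test within each replicate. The exact test, the calls per gene body and the correction by spike-in call rates were tested on simulated data, and the other comparisons were not. The simulated calls were independent of each other, so calls from 1 molecule were not covered. The tools were Python 3.11.15, NumPy 2.4.6, pandas 2.3.3, SciPy 1.17.1, numba 0.67.0 and matplotlib 3.10.9. Replicate 1 held 143497239 calls at 13676795 sites and replicate 2 held 31306245 calls at 4918612 sites.

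Members named with values were, in each cluster, those with the highest and lowest mean CC level at the promoter, the 5 highest in HC/CH, in HM/MH and in MC/CM over the body by the lower of the replicates, and paralogue groups 1 and 13. Other genes were named after their values were seen, as were members called by a test. The members and lists were chosen with earlier results of these data known. Alternatives changed the coverage minimum, the spacing and weighting of sites, the correction by spike-in call rates, the intervals, flanks and gene windows, the minimum of sites and the replicates used.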

Additional observations from a re-analysis of the deposited data

How the results depend on the processing

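Of 448 values recomputed under alternatives, 316 stayed close to the value reported or kept its call, 126 moved, among them counts of clusters and members called, and 6 exon differences no longer passed their test. A change of sign was counted for called differences averaged over the replicates, of which there were 0. It does not cover the corrected HC/CH and HH levels of replicate 1, or shares of members that cross the share of all genes. The cause of these shifts was not tested. At a coverage minimum of 10 calls the pooled cluster levels were 61.9% CC, 23.0% MM and 2.37% HM/MH, MC/CM was called lower in 2 clusters, and HM/MH was called in 0 clusters as a level and in 0 as a share. There the exon differences, last minus first, were 5.45 percentage points for MM (exact test, p = 0.117), 2.91 for MC/CM (p = 0.116, exact) and 1.59 for HM/MH (p = 0.344, exact). With sites at least 200 bp apart, the levels were 53.8% CC, 28.4% MM, 9.17% MC/CM, 5.77% HC/CH and 2.61% HM/MH, HC/CH was called higher in 3 clusters, HM/MH was called lower in 0 and its share higher in 0, and HC/CH was called higher over 13.3% of tested bodies, against 7.18% of all genes. The exon differences were then 2.91 for MC/CM (p = 0.0661, exact), 3.95 for HC/CH (p = 0.0678, exact) and 0.931 for HM/MH (p = 0.656, exact). These p-values are unadjusted and the larger of the replicates.

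The HM/MH level was 2.31% at sites covered in both replicates, where its share was called higher in 2 clusters, 2.12% as a mean over sites, and 1.63% after correction with the spike-in call rates, which gave an exon difference of 0.864 percentage points. HC/CH was called higher in 1 cluster without the 10 kb extension and in 2 against the rest of the chromosome, where HM/MH was called lower in 0. HC/CH was called lower in 1 cluster against flanks of 500 kb and in 1 against flanks of 50 kb, HM/MH was called lower in 2 against 500 kb, and its share was called higher in 2 against 50 kb.

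From the first to the last coding base, HC/CH was called higher in 0% of tested members, against 11.7% of genes. Promoter shares moved with the window. With at least 5 sites, CC was called higher in 56.7% and lower in 6.67%, and MM lower in 63.3% of the members tested, against 39.7%, 29.0% and 37.9% of all promoters. Within 500 bp, CC was called higher in 0% and lower in 23.1%, MM lower in 0% and HC/CH higher in 23.1%, against 23.8%, 11.7%, 1.61% and 3.30%. Within 2 kb the values were 62.9%, 2.86%, 68.6% and 5.71%, against 34.3%, 31.9%, 32.9% and 3.56%, and around the first coding base, a window added after seeing the data, 57.1%, 7.14%, 71.4% and 7.14%, against 47.5%, 26.8%, 46.9% and 5.81%. Using 1 replicate at a time, HC/CH was called higher in 0 to 2 clusters (2 without replicate 1), HM/MH lower in 1 to 4 clusters (4 without replicate 2), HC/CH higher in 11.8% to 13.2% of bodies, CC higher in 42.9% to 76.3% of promoters and MM lower in 33.3% to 84.2%, the high values being those without replicate 2. Over all genes or promoters these ranges were 14.4% to 25.9%, 45.1% to 51.1% and 42.0% to 52.0%. Without replicate 2, HM/MH was called lower over 73.7% of bodies against 16.4% of genes, HC/CH lower over 31.6% against 23.0%, and HC/CH higher at 21.1% of promoters against 20.6%. Without replicate 1 these were 0%, 0% and 14.3%, against 3.61%, 10.5% and 6.09%. Fewer than 10 members could be tested for bodies and promoters at a minimum of 10 calls, for promoters with sites 200 bp apart and for promoters with at least 20 sites, so no share is given there.

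No paired analysis was possible because there were no groups of samples to pair, both replicates being of the same condition. Clusters and flanks, and first and last exons, were compared within each library. Replicate 2 covers 19.8% of the reference CpGs of the clusters, so a gene that missed the threshold there is not shown to match the average.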
